A study of Mus musculus with 2 samples.

Results

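The 6 genes described here encode cell-surface receptors that read lipids and purines in lymphoid tissue: *S1pr1*, *S1pr2* and *S1pr4* (receptors of sphingosine 1-phosphate, S1P), *Gpr183* (the receptor of oxysterols, also called EBI2), *P2rx7* (an ion channel opened by extracellular ATP) and *Adora2a* (an adenosine receptor). They were chosen by name as a list, and 6 of 6 were measured among 32285 genes. Single-cell RNA sequencing (scRNA-seq) had been performed on sorted TCRβ+ cells, with spleen and peripheral (cervical, inguinal) lymph nodes pooled, of mice at 14 weeks of age, with 1 mouse of each genotype. The WT mouse carried *Foxp3Cre* with intact *Tet2* and *Tet3*. The DKO-severe mouse carried *Foxp3Cre* and floxed alleles of *Tet2* and *Tet3* (Tet2/3 flox/flox), with severe enlargement of spleen and lymph nodes. Both mice therefore carried the Cre, which is driven by *Foxp3*, the lineage factor of regulatory T (Treg) cells, and which has been considered leaky. Cells that have lost FOXP3 after deletion and cells that never expressed it are not separated in these matrices. The cells of both genotypes carried different antibody hashtags and shared 1 mRNA library.

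Cells leave lymphoid tissue along a gradient of S1P, which is high in blood and lymph and low inside the organs. S1PR1 drives this exit, and transcription of its gene is promoted by KLF2, itself a target of FOXO1, while the CD69 protein removes S1PR1 from the surface. S1PR2 signals through Gα13 and restrains migration, and is known for keeping follicular helper T (Tfh) cells and germinal centre B cells inside follicles. GPR183 guides cells towards oxysterols at the border of the T zone and the follicle, and Tfh cells of germinal centres are known to lower it. Extracellular ATP is sensed by P2RX7, is broken down to adenosine by CD39 (*Entpd1*) and CD73 (*Nt5e*), and adenosine is then sensed by the receptor that *Adora2a* encodes, which raises cyclic AMP and dampens T cell activation.

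Cells were gated on transcripts. The Foxp3-negative Cd4 gate (1 or more UMI, that is 1 distinct captured molecule, of *Cd3d*, *Cd3e* or *Cd3g* and of *Cd4*, none of *Cd8a*, *Cd8b1* or *Foxp3*) held 1675 WT and 2413 DKO-severe cells. It was divided into cells without a *Pdcd1* UMI (1574 and 1333) and with one (101 and 1080), *Pdcd1* encoding PD-1, a surface protein of Tfh and activated cells. The Foxp3-positive Cd4 gate held 64 and 336 cells and the Cd8 gate 3053 and 1736. Levels are given as CPM, the UMIs of a gene in all cells of a gate, scaled to 1000000 UMIs of that gate, and each ratio divides the DKO-severe level by the WT level. All intervals are 95% intervals of counting error. As each genotype was a single mouse, variation among mice could not be measured, and since cells do not replace mice, the genotypes are compared without tests or p-values.

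DKO-severe cells held more UMIs (a median of 8072 against 5616 per retained cell), and the Foxp3-negative gate held 23314133 UMIs in DKO-severe and 9777859 in WT. The T cell markers *Cd3d*, *Cd3e*, *Cd3g*, *Trac* and *Trbc2* were all detected in the T cell gates. The Treg list (*Foxp3*, *Il2ra*, *Ikzf2*, *Ctla4*, *Lrrc32*, *Nrp1*) summed in the Foxp3-positive gate to 3723 (WT) and 3481 (DKO-severe) CPM. RNA of other cells was present. The granulocyte list (*S100a8*, *S100a9*, *Ngp*, *Ltf*, *Camp*) summed to between 75.5 and 84.5 CPM in the WT T cell gates and to between 1395 and 3682 CPM in the DKO-severe ones, and the macrophage list (*Lyz2*, *Csf1r*, *Cd68*, *Adgre1*, *C1qa*, *Cd14*) to between 17.4 and 258 CPM and between 99.2 and 591 CPM. Leaving out every cell with 2 or more UMIs of other-lineage markers kept 846 WT and 749 DKO-severe Foxp3-negative cells and gave log2 ratios of -1.23 for *S1pr1* and -1.53 for *Gpr183*. *Tet2* and *Tet3*, the targeted genes, had 56.6 and 89.3 CPM in WT and 71.1 and 87.3 CPM in DKO-severe in the Foxp3-positive gate, but 3' tags that lie outside the floxed exons do not check the deletion.

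On the mm10 assembly (GRCm38, GENCODE M21 annotation) *S1pr1* (ENSMUSG00000045092) lies at chr3:115710433-115715072 on the minus strand, *S1pr2* (ENSMUSG00000043895) at chr9:20962361-20976781 (minus), *S1pr4* (ENSMUSG00000044199) at chr10:81497747-81500132 (minus), *Gpr183* (ENSMUSG00000051212) at chr14:121952551-121965195 (minus), *P2rx7* (ENSMUSG00000029468) at chr5:122643911-122691432 (plus) and *Adora2a* (ENSMUSG00000020178) at chr10:75316877-75334784 (plus). *Gpr183* overlaps *Ubac2* on the opposite strand, and *P2rx7* overlaps the microRNA gene *Mir8115* on the same strand. The other 4 overlap no annotated gene.

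The 250 bases upstream of the annotated start are shown for the receptors whose CD4 ratios lay farthest apart, *Gpr183* and *S1pr2* (RefSeq, GRCm38.p6, 5′ to 3′ on the minus strand, chr14:121965194-121965443 and chr9:20976794-20977043). Capitals mark CACCC, the core of sites bound by Krüppel-like factors such as KLF2, on either strand.
*Gpr183*: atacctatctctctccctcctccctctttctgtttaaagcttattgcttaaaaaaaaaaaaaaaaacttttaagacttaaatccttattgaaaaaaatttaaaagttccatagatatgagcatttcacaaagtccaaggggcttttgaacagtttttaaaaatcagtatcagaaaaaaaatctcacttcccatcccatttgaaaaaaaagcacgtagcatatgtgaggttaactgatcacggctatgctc
*S1pr2*: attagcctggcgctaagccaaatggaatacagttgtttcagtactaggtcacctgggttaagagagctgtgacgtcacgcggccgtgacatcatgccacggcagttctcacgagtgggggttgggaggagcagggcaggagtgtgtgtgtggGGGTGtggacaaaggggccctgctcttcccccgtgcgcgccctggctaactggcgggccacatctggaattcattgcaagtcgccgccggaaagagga
The *Gpr183* stretch held 0 matches and the *S1pr2* stretch 1, and 52.0% of 32851 such upstream stretches in the table held at least 1. The FOXO core GTAAACA was in neither, and was in 3.17% of all stretches. A match is a description of letters and not a binding site. The *S1pr4* stretch and those of both annotated starts of *P2rx7* also held 1 match of CACCC each. *S1pr1* and *Adora2a* had no entry in the table.

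*S1pr1*, the exit receptor, was lower in DKO-severe in all 5 T cell gates. In Foxp3-negative Cd4 cells its level was 261 CPM in WT (2555 UMIs) and 94.1 CPM in DKO-severe (2195 UMIs), 2.78-fold lower (log2 ratio -1.47, interval -1.56 to -1.39). Without *Pdcd1* the levels were 274 and 123 CPM (log2 ratio -1.15, -1.25 to -1.06) and with *Pdcd1* 114 and 68.8 CPM (log2 ratio -0.73, -1.05 to -0.39). Within each genotype the cells with *Pdcd1* thus held less *S1pr1* than those without, and within each of these gates the DKO-severe level was lower. In Foxp3-positive cells *S1pr1* was at 181 and 83.2 CPM (log2 ratio -1.12, -1.46 to -0.76), and in Cd8 cells at 229 and 113 CPM (log2 ratio -1.02, -1.10 to -0.95). Under the alternative settings these ratios ran from -1.76 to -0.87 and from -1.05 to -0.94, with 2 and 3 of 12 short of 2-fold. In the WT order, cells without *Pdcd1* were highest, Cd8 and Foxp3-positive cells followed with overlapping intervals, and cells with *Pdcd1* were lowest among the T cells. In DKO-severe the first 2 places (without *Pdcd1* and Cd8) overlapped, and Foxp3-positive cells and cells with *Pdcd1* came next in that order.

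*Gpr183*, the oxysterol receptor, had the lowest ratio of the 6 genes in Foxp3-negative Cd4 cells and a ratio much nearer to 1 in Cd8 cells. Its level stood at 258 CPM (2524 UMIs) in WT and 66.3 CPM (1545 UMIs) in DKO-severe Foxp3-negative cells, 3.90-fold lower (log2 ratio -1.96, -2.05 to -1.87). It was at 264 and 90.6 CPM without *Pdcd1* (log2 ratio -1.55, -1.65 to -1.44) and at 183 and 44.9 CPM with *Pdcd1* (log2 ratio -2.03, -2.30 to -1.75). Foxp3-positive cells held 109 and 72.7 CPM (log2 ratio -0.58, -1.01 to -0.13), a ratio of -0.10 without cells holding other-lineage UMIs and -1.49 with gates of 2 UMIs. In Cd8 cells the levels were 181 and 157 CPM (log2 ratio -0.21, -0.28 to -0.14), an interval that does not reach that of any Foxp3-negative gate. The DKO-severe gates were ordered Cd8, without *Pdcd1*, Foxp3-positive and with *Pdcd1*, with no overlap of intervals between neighbours. In WT, cells without *Pdcd1* were highest and Foxp3-positive cells lowest, and the intervals of cells with *Pdcd1* and Cd8 cells overlapped. In the DKO-severe Foxp3-positive gate 1 cell held 28 of the 355 *Gpr183* UMIs.

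*S1pr2*, the confinement receptor, was scarce in both genotypes and more frequent in DKO-severe. Foxp3-negative Cd4 cells held 28 UMIs in WT (2.86 CPM) and 258 in DKO-severe (11.1 CPM), 3.86-fold higher (log2 ratio 1.95, 1.38 to 2.57). Without *Pdcd1* the levels were 2.55 and 8.52 CPM (log2 ratio 1.74, 1.07 to 2.47). With *Pdcd1*, 5 WT UMIs (6.62 CPM) faced 165 in DKO-severe (13.3 CPM), and the interval of the log2 ratio (1.01, -0.25 to 2.65) included 0. In the Foxp3-positive gate WT had 0 UMIs and DKO-severe 37 (7.58 CPM, 5.34 to 10.4). A count of 0 allowed a WT level of up to 8.04 CPM, so a difference was not detectable at this depth and no ratio is given. Cd8 cells held 2.10 and 3.27 CPM (log2 ratio 0.64, 0.04 to 1.25). Among the T cell gates the highest level of *S1pr2* was thus in DKO-severe cells with *Pdcd1*, with the interval of WT cells with *Pdcd1* (2.15 to 15.5 CPM) overlapping it. At equal depth 5.93% of these DKO-severe cells had a UMI of it (4.09 to 8.26). Beside it stood 4.26% (2.72 to 6.32) for the macrophage gene *Lyz2*, a rough gauge of RNA from other cells.

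*S1pr4*, an S1P receptor of blood cells, differed by less than 2-fold in all 5 gates. Its level was 61.2 and 64.4 CPM in Foxp3-negative Cd4 cells (log2 ratio 0.07, -0.06 to 0.21), and its log2 ratio lay between 0.17 and 0.31 in the other T cell gates. Its interval excluded 0 without *Pdcd1* (62.3 and 75.7 CPM, log2 ratio 0.28, 0.13 to 0.44) and in Cd8 cells (58.5 and 65.8 CPM, log2 ratio 0.17, 0.05 to 0.29). In the undivided Foxp3-negative gate the sign changed when the total excluded genes of immunoglobulins, haemoglobins, mitochondria and ribosomal proteins (log2 ratio -0.085) or when ratios were centred on the median gene (log2 ratio -0.03). In the small gates it moved past 2-fold under 1 setting each, from 0.19 to 1.11 with *Pdcd1* on thinned counts and from 0.31 to 1.78 in Foxp3-positive cells with gates of 2 UMIs.

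*P2rx7*, the ATP-gated channel, differed in direction between gates. In WT it was highest in Foxp3-negative Cd4 cells with *Pdcd1* (83.5 CPM, 63 UMIs) and in Foxp3-positive cells (82.8 CPM, 38 UMIs), lower without *Pdcd1* (23.5 CPM) and lowest in Cd8 cells (4.76 CPM). In DKO-severe these gates held 34.5, 26.8, 36.9 and 9.31 CPM. The divided CD4 gates thus lay within 26.8 to 36.9 CPM in DKO-severe and within 23.5 to 83.5 CPM in WT. The log2 ratio was -1.27 (-1.66 to -0.87) with *Pdcd1* and -1.63 (-2.16 to -1.06) in Foxp3-positive cells, against 0.65 (0.41 to 0.90) without *Pdcd1* and 0.97 (0.60 to 1.35) in Cd8 cells. Over the whole Foxp3-negative gate the opposite ratios summed to 28.1 and 35.6 CPM (log2 ratio 0.34, 0.14 to 0.54). The WT gate with *Pdcd1* held only 101 cells, its plasma cell list (*Jchain*, *Xbp1*, *Mzb1*, *Sdc1*) summed to 2395 CPM against 62.1 in DKO-severe, and its Treg list to 1922 CPM against 1744, with *Foxp3* at 0 by the gate. With cells that held 2 or more UMIs of other lineages left out, the log2 ratio with *Pdcd1* was -0.99 and that in Foxp3-positive cells -2.64.

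*Adora2a*, the adenosine receptor, was higher in DKO-severe in Foxp3-negative, Foxp3-positive and Cd8 cells. Its level was 9.61 CPM (94 UMIs) in WT and 21.1 CPM (491 UMIs) in DKO-severe Foxp3-negative Cd4 cells, 2.19-fold higher (log2 ratio 1.13, 0.81 to 1.47). Without *Pdcd1* it was at 8.42 and 18.1 CPM (log2 ratio 1.10, 0.71 to 1.5). With *Pdcd1* the levels were 23.8 and 23.7 CPM, and the interval of the log2 ratio (-0.01, -0.69 to 0.77) included 0. Foxp3-positive cells held 13.1 CPM (6 UMIs) and 39.7 CPM (194 UMIs), a log2 ratio of 1.60 (0.46 to 3.07). Cd8 cells held 8.71 and 17.9 CPM (log2 ratio 1.04, 0.77 to 1.31). In DKO-severe the Foxp3-positive gate was highest, cells with *Pdcd1* came next, and cells without *Pdcd1* and Cd8 cells overlapped.

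**Figure D1:**
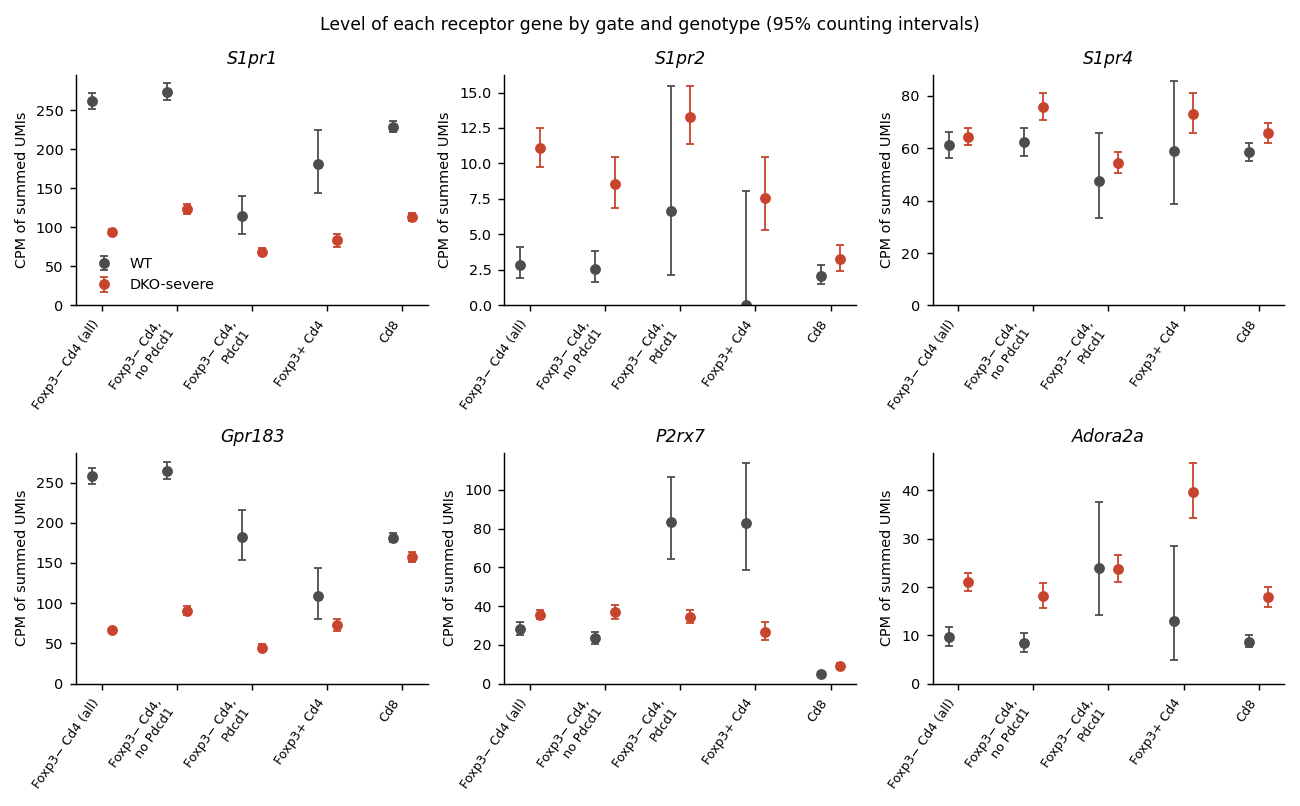
Level of each of the 6 genes (CPM of UMIs summed over the gate, linear axes from 0) in 5 gates for WT (grey) and DKO-severe (red), with 95% counting intervals. *S1pr1* and *Gpr183* are lower in DKO-severe in each T cell gate, while *P2rx7* lies between 23.5 and 83.5 CPM in the divided WT CD4 gates and between 26.8 and 36.9 CPM in the DKO-severe ones.

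Genes with a mean of 20 or more CPM over both genotypes were counted as past 2-fold or not. In the Foxp3-negative gate 4 of the 6 receptors reached this mean, and 2 of them (*S1pr1* and *Gpr183*) were 2-fold or more lower and 0 higher, where 3.3% of 6300 genes were lower and 7.98% higher. *S1pr2* and *Adora2a* stayed under the mean there and were not counted. Without *Pdcd1* the same 2 of 4 were lower (2.24% of all genes, with 6.21% higher). With *Pdcd1*, *Gpr183* and *P2rx7* were lower among 5 (3.19% of all genes, with 5.16% higher). In Foxp3-positive cells *S1pr1* and *P2rx7* were lower among 5 (5.65% of all genes) and *Adora2a* higher (7.96%). *Adora2a*, at 13.1 CPM in WT, reached the mean there only through the DKO-severe level, so nothing is read from its count, and its log2 ratio was 0.58 with gates of 2 UMIs, 0.71 on thinned counts and 0.85 without cells holding other-lineage UMIs. In Cd8 cells *S1pr1* was lower among 3 (0.872% of all genes, with 1.71% higher). The median log2 ratio of all genes counted lay between -0.01 and 0.10 in the T cell gates. *S1pr2* reached the mean in no gate.

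**Figure D2:**
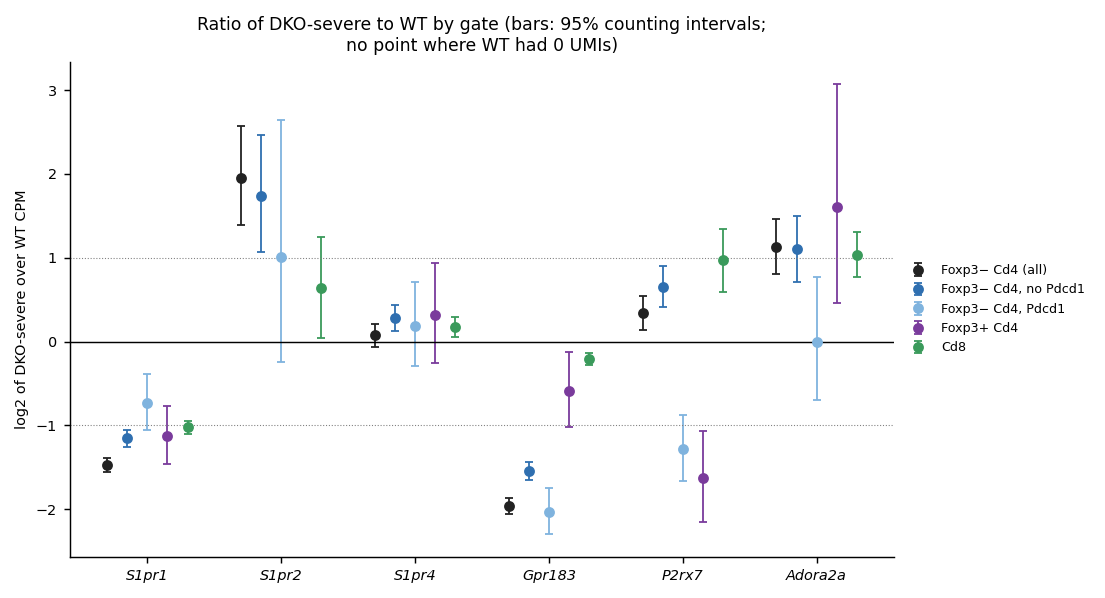
Log2 ratio of DKO-severe over WT CPM of each receptor gene in the 5 T cell gates, with 95% counting intervals (dotted lines at 2-fold, no point for *S1pr2* in Foxp3-positive cells because WT had 0 UMIs). The points of *P2rx7* fall on both sides of 0, at -1.27 and -1.63 with *Pdcd1* and *Foxp3* and at 0.65 and 0.97 without *Pdcd1* and in Cd8 cells.

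Detection per cell was compared after each cell had been thinned at random to 3800 UMIs and gated again. In Foxp3-negative Cd4 cells *S1pr1* was detected in 726 of 1224 WT cells (59.3%, exact interval 56.5 to 62.1) and 535 of 1882 DKO-severe cells (28.4%, 26.4 to 30.5). *Gpr183* was detected in 51.6% (48.7 to 54.4) and 17.1% (15.4 to 18.8), and cells with 3 or more UMIs numbered 163 of 1224 in WT and 48 of 1882 in DKO-severe. Both fewer cells with a UMI and fewer UMIs per such cell were seen, since the mean of *S1pr1* in cells with a UMI was 1.81 in WT and 1.47 in DKO-severe. *S1pr2* was detected in 9 of 1224 cells in WT (0.735%, 0.337 to 1.39) and 80 of 1882 in DKO-severe (4.25%, 3.38 to 5.26). As a rough gauge of RNA from other cells, *Cd79a*, a B cell gene, was detected in 0.980% and 0.797% of the same cells. *Lyz2*, a macrophage gene, was detected in 2.70% and 4.94%. The WT share of *S1pr2* lay under both gauges, and the DKO-severe share lay above that of *Cd79a* and not above that of *Lyz2*. The 2 genes were spread differently, since 33 of 93 DKO-severe cells with *Lyz2* held 3 or more UMIs and 0 of 80 with *S1pr2* did. The share of another gene does not bound the free RNA of *S1pr2*, so whether its UMIs are background is not settled here. Median depths before thinning were 5258 and 7969 UMIs.

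*P2rx7* was detected in that gate in 7.43% (WT, 6.03 to 9.05) and 10.4% (DKO-severe, 9.07 to 11.9), and *Adora2a* in 3.43% (2.48 to 4.61) and 8.29% (7.08 to 9.63). The WT share of *Adora2a* was near that of *Lyz2*. *S1pr4* was detected in 19.9% (17.7 to 22.3) and 21.2% (19.4 to 23.1), overlapping intervals. Cells in which none of the 6 receptors was detected were 14.8% (WT) and 37.9% (DKO-severe) of the Foxp3-negative gate, and 20.8% and 29.0% of Cd8 cells. At equal depth the mean number of the 6 receptors per Foxp3-negative cell was 1.42 and 0.896.

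In Cd8 cells at equal depth (2898 WT, 1571 DKO-severe) *S1pr1* was detected in 56.5% (54.6 to 58.3) and 34.9% (32.6 to 37.4), while *Gpr183* was detected in 38.5% (36.7 to 40.3) and 34.2% (31.9 to 36.7). *S1pr4* was detected in 19.8% and 25.2%, *Adora2a* in 3.07% and 6.49% and *P2rx7* in 1.45% and 3.44%, the WT share of *P2rx7* lying between the gauges *Cd79a* and *Lyz2*. *S1pr2* was detected in 0.587% and 1.40%, near the 0.863% and 0.764% of *Cd79a* and under the 3.00% and 2.61% of *Lyz2*. These gauges do not settle whether its UMIs there are background. In the small gates the intervals were wide. With *Pdcd1*, *P2rx7* was detected in 11 of 52 cells in WT (21.2%, 11.1 to 34.7) and 56 of 540 in DKO-severe (10.4%, 7.93 to 13.3), and in Foxp3-positive cells in 7 of 34 (20.6%, 8.70 to 37.9) and 9 of 83 (10.8%, 5.08 to 19.6). The intervals of both pairs overlapped. *Adora2a* was detected in 3 of 34 WT Foxp3-positive cells (8.82%, 1.86 to 23.7) and 11 of 83 DKO-severe ones (13.3%, 6.81 to 22.5), intervals that also overlapped. Median depths of the Foxp3-positive gate before thinning were 5382.5 (WT) and 11607.5 (DKO-severe) UMIs. *S1pr2* was found in 0 of 34 WT Foxp3-positive cells, for which the exact upper limit of the share of cells with a UMI was 10.3%, against 4 of 83 in DKO-severe (4.82%, 1.33 to 11.9).

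**Figure D3:**
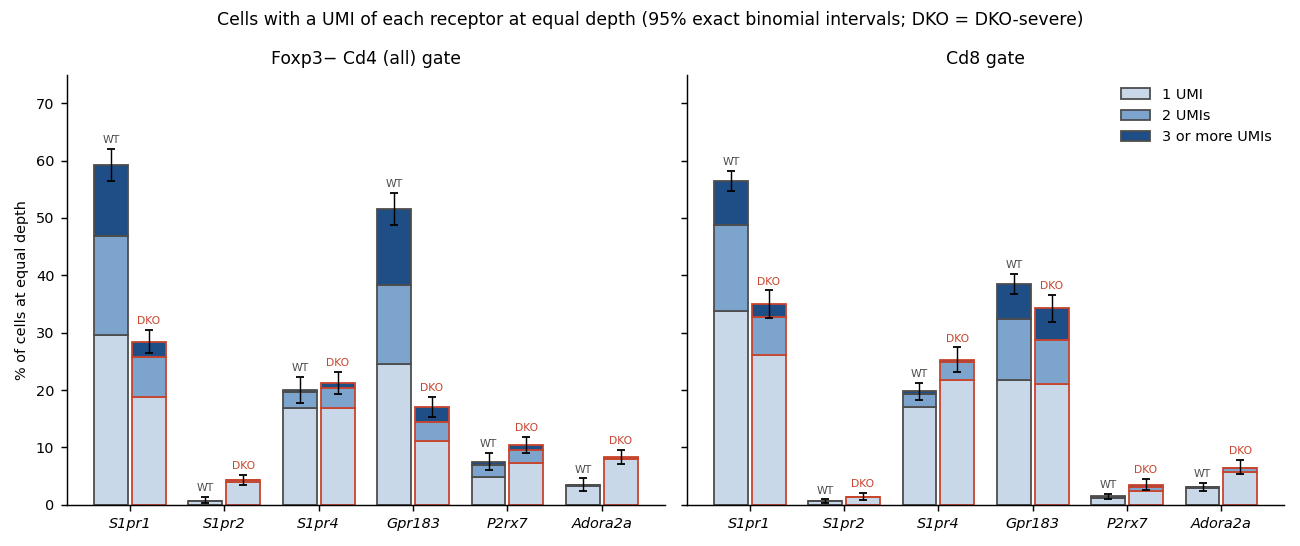
Share of cells with 1, 2 or 3 or more UMIs of each receptor gene after thinning to 3800 UMIs, in the Foxp3-negative Cd4 gate (left) and the Cd8 gate (right), with WT and DKO-severe (DKO) side by side and exact 95% binomial intervals of the total. *Gpr183* stands at 51.6% and 17.1% on the left and at 38.5% and 34.2% on the right, while *S1pr1* is lower on both sides.

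To see which cells of the Foxp3-negative gate held the receptors, the gate was divided by a single transcript at a time. The largest contrast was that of *S1pr1* by *Klf2*, the factor that promotes its transcription. DKO-severe cells with a *Klf2* UMI held 122 CPM of *S1pr1* and those without held 31.5 CPM (log2 1.95, 1.75 to 2.15), against 291 and 131 CPM in WT (log2 1.15, 0.96 to 1.35). *S1pr4* also was higher with *Klf2* in DKO-severe (76.5 against 36.6 CPM, log2 1.06, 0.87 to 1.26), and *P2rx7* was lower (28.3 against 52.4 CPM, log2 -0.89, -1.09 to -0.69). *Klf2* itself was at 565 and 423 CPM in the gate. Between genotypes *S1pr1* was lower both in cells with *Klf2* (log2 ratio -1.26, -1.35 to -1.17) and in cells without (log2 ratio -2.05, -2.32 to -1.78). A cell without a UMI may still express the transcript, so these contrasts are between richer and poorer cells.

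The naive T cell markers *Ccr7*, *Lef1*, *Tcf7* and *Il7r* summed in the Foxp3-negative gate to 2317 CPM (WT) and 875 CPM (DKO-severe), and in the Cd8 gate to 2114 and 1523 CPM. Among cells without *Pdcd1* the sums were 2405 and 1188 CPM. The naive markers were thus lower in DKO-severe in the same gates as *S1pr1* and *Gpr183*, and their part in the ratios of the receptors was not tested.

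Tfh-related transcripts divided the receptors in opposite ways in DKO-severe. Cells with a UMI of *Il21*, the cytokine of Tfh cells (762 of 2413 cells), held 31.5 CPM of *Gpr183* against 85.6 CPM without (log2 -1.44, -1.64 to -1.25). Their *S1pr2* was at 15.8 against 8.41 CPM (log2 0.91, 0.55 to 1.28). The cells with *Il21* were deeper (a median of 9103.5 against 7489 UMIs). At equal depth *S1pr2* was detected in 6.11% (3.95 to 8.95) of them and 3.76% (2.85 to 4.86) of those without, overlapping intervals. Cells with *Cxcr5*, the receptor that draws cells into follicles (554 cells), held 18.0 against 8.42 CPM of *S1pr2* (log2 1.10, 0.73 to 1.46), and 50.6 against 29.9 CPM of *P2rx7* (log2 0.76, 0.55 to 0.96). These cells were deeper (a median of 9122 against 7659 UMIs). At equal depth *S1pr2* was detected in 5.46% (2.94 to 9.16) of 238 cells with *Cxcr5* and 4.08% (3.17 to 5.15) of 1644 without, overlapping intervals. The summed level of *Gpr183* differed little by *Cxcr5* (61.3 against 68.2 CPM, log2 -0.15, -0.32 to 0.01). At equal depth, however, *Gpr183* was detected in 11.3% (7.61 to 16.1) of cells with *Cxcr5* and 17.9% (16.1 to 19.8) without. Cells with *Cntn5*, a neuronal adhesion gene detected in 808 DKO-severe cells of this gate, held less *Gpr183* (38.0 against 81.7 CPM, log2 -1.10, -1.29 to -0.92) and less *P2rx7* (24.8 against 41.6 CPM, log2 -0.75, -0.98 to -0.52), more *S1pr2* (15.2 against 8.82 CPM, log2 0.78, 0.42 to 1.15), and about equal *S1pr1* (96.8 against 92.7 CPM, log2 0.06, -0.06 to 0.19). At equal depth *S1pr2* was detected in 5.04% (3.40 to 7.16) of cells with *Cntn5* and 3.90% (2.92 to 5.10) without, overlapping intervals. In DKO-severe *P2rx7* was thus higher with *Cxcr5* and lower with *Il21* (28.9 against 39.4 CPM) and *Cntn5*. In WT its summed level was higher with each of them. It was 55.1 against 25.4 CPM by *Cxcr5* (log2 1.12, 0.65 to 1.57) and 53.2 against 26.8 CPM by *Cntn5* (log2 0.99, 0.36 to 1.57). By *Il21* it was 71.5 against 27.6 CPM (log2 1.37, 0.15 to 2.37, from 8 UMIs in the cells with *Il21*). At equal depth the WT shares lay apart only by *Cxcr5* (11 of 61 cells, 9.36% to 29.98%, against 80 of 1163, 5.49% to 8.49%). The intervals overlapped by *Cntn5* (6 of 46, 4.94% to 26.3%, against 85 of 1178, 5.80% to 8.85%). By *Il21*, 0 of 10 cells (up to 30.8%) against 91 of 1214 do not settle a direction. The WT gate had 20 cells with *Il21*, which held 29 *Gpr183* UMIs (259 CPM against 258 without).

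*Pdcd1* divided *P2rx7* in WT (83.5 against 23.5 CPM, log2 1.83, 1.40 to 2.24) and not in DKO-severe (34.5 against 36.9 CPM, log2 -0.10, -0.30 to 0.10). *Gpr183* was lower with *Pdcd1* in both (WT 183 against 264 CPM, DKO-severe 44.9 against 90.6 CPM). *Cd69*, whose protein removes S1PR1 from the surface, was at 120 and 136 CPM in the gate, and *S1pr1* transcripts differed little by it in DKO-severe (87.2 against 105 CPM, log2 -0.26, -0.39 to -0.14).

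The Cd8 gate was divided by the granzymes *Gzma*, *Gzmb* and *Gzmk*, proteases of cytotoxic granules, of which 190 of 3053 cells had a UMI in WT and 582 of 1736 in DKO-severe. With a granzyme UMI *P2rx7* was at 4.99 CPM (7 UMIs) in WT and 20.4 CPM (94 UMIs) in DKO-severe (log2 ratio 2.03, 0.93 to 3.38), and without one at 4.75 and 5.03 CPM (log2 ratio 0.08, -0.41 to 0.57). The higher *P2rx7* of DKO-severe Cd8 cells was therefore seen in the cells with a granzyme. At equal depth *P2rx7* was detected there in 2 of 112 cells in WT (1.79%, 0.217 to 6.30) and in 28 of 390 in DKO-severe (7.18%, 4.82 to 10.2), against 1.44% and 2.20% without a granzyme. Between genotypes, *Gpr183* was lower in DKO-severe among cells with a granzyme (198 and 130 CPM, log2 ratio -0.61, -0.82 to -0.40). Among cells without one it was nearer to level (180 and 168 CPM, log2 ratio -0.11, -0.19 to -0.03). *Adora2a* was higher on both sides, at 12.8 and 30.2 CPM with a granzyme (log2 ratio 1.23, 0.52 to 2.03) and 8.42 and 13.2 CPM without (log2 ratio 0.64, 0.32 to 0.97). *S1pr1* was lower on both sides by close amounts (log2 ratio -1.14, -1.35 to -0.92 with and -0.96, -1.05 to -0.88 without). Within each genotype *S1pr2* was higher with a granzyme than without. The levels were 5.71 (8 UMIs) against 1.84 CPM in WT and 6.07 (28 UMIs) against 2.18 CPM in DKO-severe. At equal depth 0 of 112 WT cells with a granzyme had an *S1pr2* UMI. In DKO-severe the shares were 3.08% (1.60 to 5.31) with a granzyme and 0.847% (0.407 to 1.55) without. Median depths before thinning were 6606.5 and 6344 UMIs with a granzyme and 6222 and 9959.5 UMIs without.

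**Figure D4:**
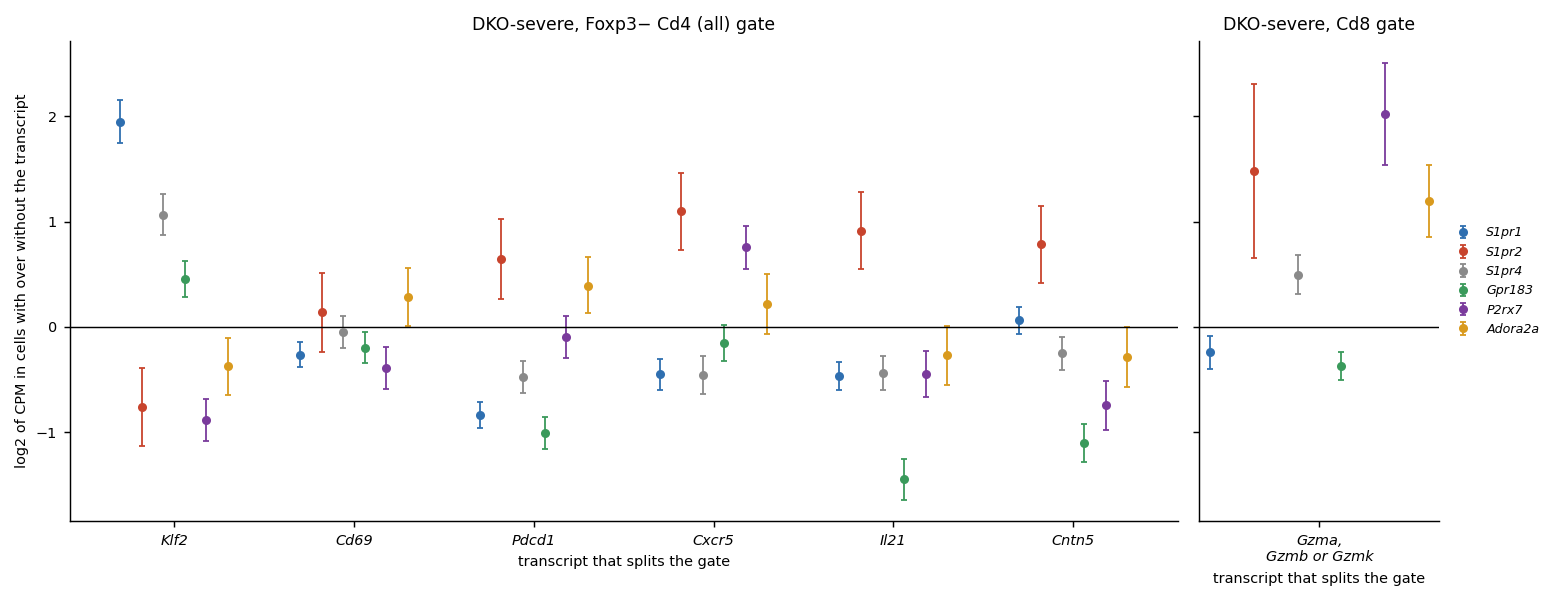
Log2 of the CPM of each receptor gene in DKO-severe cells with over those without a UMI of the transcript on the horizontal axis, in the Foxp3-negative Cd4 gate (left) and the Cd8 gate (right), with 95% counting intervals. *S1pr1* stands at 1.95 by *Klf2*, *Gpr183* at -1.44 by *Il21* and *P2rx7* at 2.02 by granzymes in Cd8 cells.

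The pathways around the receptors were described with lists of 19 S1P, 6 oxysterol and 20 purine genes, of which 19, 6 and 19 were measured. In the Foxp3-negative gate 10 S1P genes had a mean of 20 or more CPM, and 1 was 2-fold or more higher and 1 lower, against 7.98% and 3.3% of all genes. The higher one was *Rgs1*, which shortens G protein signals of chemoattractant receptors (39.7 and 84.8 CPM, log2 ratio 1.10, 0.94 to 1.26). The lower one was *Foxo1* (344 and 149 CPM, log2 ratio -1.20, -1.27 to -1.13). *Klf2* was at a log2 ratio of -0.42 (-0.46 to -0.37), *Gna13*, the partner of S1PR2, at 0.51 (88.1 and 125 CPM) and *Arhgef1*, which carries the Gα13 signal to RhoA, at -0.79 (297 and 171 CPM). *S1pr3* was nearly absent (1 and 5 UMIs). *S1pr5*, the exit receptor of natural killer and effector CD8 cells, was at 1.33 CPM (28 UMIs) in WT and 12.8 CPM (211 UMIs) in DKO-severe Cd8 cells (log2 ratio 3.26, 2.69 to 3.88), the opposite direction to *S1pr1* in the same gate. Among the enzymes of S1P breakdown, *Sgpl1* was higher (20.7 and 34.7 CPM, log2 ratio 0.75) and *Sgpp1* lower (log2 ratio -0.77, -0.97 to -0.57), and the surface lipid phosphatase *Plpp1* was at 2.66 and 15.9 CPM (log2 ratio 2.58, 2.00 to 3.21). The 10 genes had a median log2 ratio of 0.23, beside 0.10 for all genes. The same 2 genes were past 2-fold without *Pdcd1* (1 of 10 each way, beside 6.21% of all genes higher and 2.24% lower), and 0 of 10 with *Pdcd1* (5.16% and 3.19% of all genes). In Foxp3-positive cells *Sgpp1* was lower (54.5 and 22.5 CPM, log2 ratio -1.27), 1 of 10 beside 5.65% of all genes. In Cd8 cells *Rgs1* was higher (19.6 and 45.5 CPM, log2 ratio 1.22), 1 of 9 beside 1.71% of all genes. Its WT level lay just under 20 CPM there, so it reached the mean through the DKO-severe level and nothing is read from its count.

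Of the oxysterol genes only *Nr1h2*, an oxysterol-activated nuclear receptor, reached the mean in T cells (23.0 and 34.2 CPM in the Foxp3-negative gate, log2 ratio 0.57, 0.36 to 0.79), and in Foxp3-positive cells it was at 13.1 CPM (6 UMIs) in WT and 33.4 CPM in DKO-severe (log2 ratio 1.35, 0.20 to 2.82). There it reached the mean only through the DKO-severe level, so that its place past 2-fold, beside 7.96% of all genes, is read as no result. The enzymes that make or destroy the GPR183 ligand were near 0 in the Foxp3-negative gate, with 0 and 1 UMIs of *Ch25h*, 3 and 17 of *Cyp7b1* and 5 and 33 of *Hsd3b7*.

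Of 11 purine genes with the mean in the Foxp3-negative gate, 5 were 2-fold or more higher and 0 lower, beside 7.98% and 3.3% of all genes, with a median log2 ratio of 0.99. They were *Cd38*, a surface enzyme that consumes NAD (7.26 and 72.1 CPM, log2 ratio 3.31, 2.97 to 3.68), *Nt5e* (44.1 and 242 CPM, log2 ratio 2.46, 2.31 to 2.60), *Entpd1* (11.0 and 40.3 CPM, log2 ratio 1.87, 1.58 to 2.17), the nucleoside transporter *Slc29a1* (14.9 and 46.9 CPM, log2 ratio 1.65, 1.40 to 1.91) and *Adk*, which phosphorylates adenosine inside the cell (156 and 400 CPM, log2 ratio 1.36, 1.28 to 1.44). *Cd38*, *Entpd1* and *Slc29a1* were under 20 CPM in WT and reached the mean only through the DKO-severe level. This favours their being counted as higher and raises the median of the list, so nothing is read from their counts. *Nt5e* and *Adk* lay above 20 CPM in both genotypes. Both enzymes from ATP to adenosine (*Entpd1* from under 20 CPM in WT) and the adenosine receptor *Adora2a*, itself not counted there, had higher levels in the undivided gate. In its cells with *Pdcd1*, *Adora2a* was level (23.8 and 23.7 CPM). *Art2b*, whose product can activate P2RX7 through NAD, was at 36.1 and 71.6 CPM (log2 ratio 0.99), and *Panx1*, a channel through which ATP leaves cells, at 30.5 and 46.6 CPM (log2 ratio 0.61). *Pde4b* and *Pde4d*, which break down cyclic AMP, were at log2 ratios of -0.66 and -0.39. Without *Pdcd1* 6 of 11 were higher (6.21% of all genes), the same 3 of them from under 20 CPM in WT, and with *Pdcd1* 2 of 12, *Adk* and *Cd38* (5.16%). In Foxp3-positive cells 5 of 11 were higher (7.96%), *Nt5e*, *Adk*, *Slc29a1*, *Cd38* and *Pde4d*, and *Pde4b* was lower (5.65%). *Slc29a1* and *Cd38* were each at 13.1 CPM (6 UMIs) in WT there and again reached the mean through DKO-severe. In Cd8 cells 1 of 8, *Nt5e* (28.6 and 59.4 CPM, log2 ratio 1.05), was higher (1.71%). *Cd38* was also higher there, from under the mean (3.76 and 23.5 CPM, log2 ratio 2.64, 2.29 to 3.01). *Entpd1*, a known gene of Treg cells, was lower in the Foxp3-positive gate (69.7 and 45.1 CPM, log2 ratio -0.63, -1.17 to -0.05) and higher in Foxp3-negative cells.

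**Figure D5:**
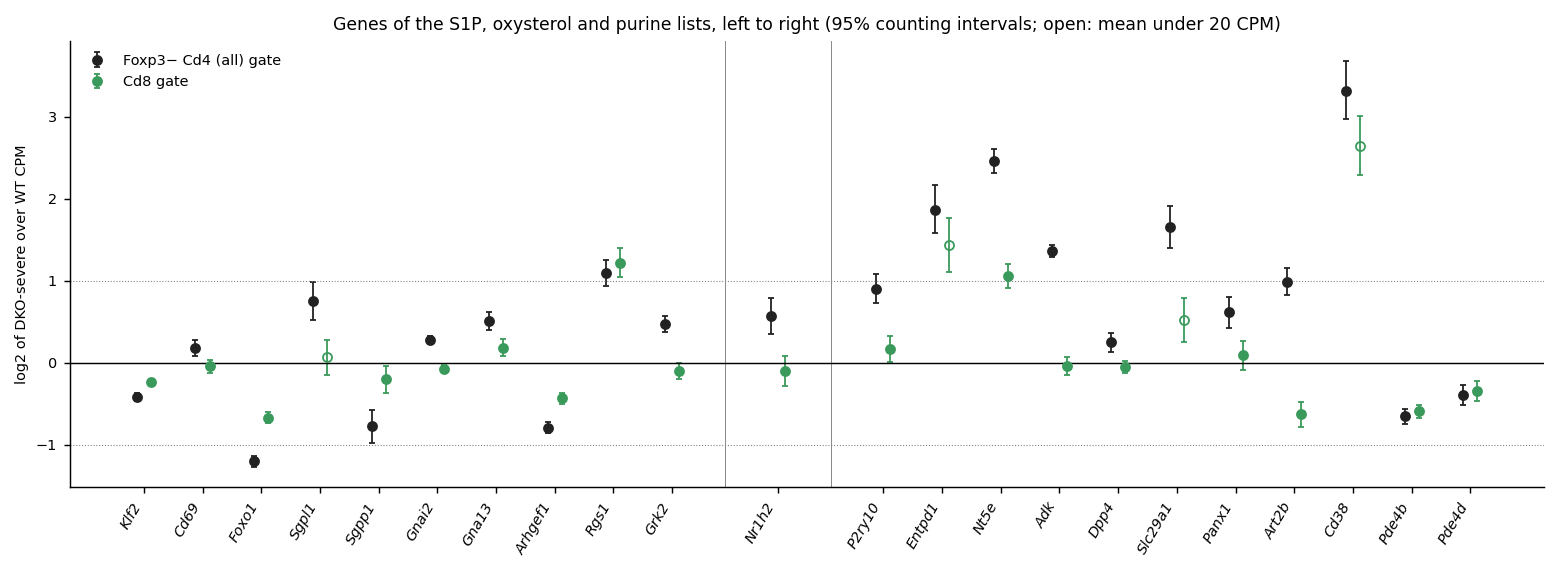
Log2 ratio of DKO-severe over WT CPM of the listed genes with a mean of 20 or more CPM in either gate shown (S1P, oxysterol and purine genes from left to right, separated by lines) in the Foxp3-negative Cd4 gate (black) and the Cd8 gate (green), with 95% counting intervals, dotted lines at 2-fold and open points for a mean under 20 CPM. *Cd38*, *Nt5e* and *Entpd1* reach 3.31, 2.46 and 1.87 in Foxp3-negative cells.

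The genes whose levels were most like those of a receptor were ranked by Pearson correlation of log2(CPM + 5) over 8 sums (4 T cell gates in both genotypes, without the undivided Foxp3-negative gate) among 6349 genes. These points share 2 mice and 1 library, and the highest of 6349 correlations over 8 points are high by selection, so the values are descriptions. They were *Gm44686*, *Pced1b* and *Gps2* for *S1pr1* (r = 0.98, 0.97 and 0.97), *Chchd3*, *Rreb1* and *Rps6ka3* for *Gpr183* (r = 0.98, 0.96 and 0.96), *AI662270*, *Lypla2* and *Sptlc1* for *S1pr2* (r = 0.98, 0.98 and 0.98), *Knop1*, *Tbcd* and *Kcnab2* for *S1pr4* (r = 0.97, 0.93 and 0.93), *Nkap*, *Tmem65* and *Sept9* for *P2rx7* (r = 0.99, 0.99 and 0.98) and *Cib1*, *Mcm2* and *Abracl* for *Adora2a* (r = 0.98, 0.97 and 0.97). Between the receptors, *S1pr1* and *Gpr183* ran together (r = 0.80), while *S1pr1* ran opposite to *Adora2a* (r = -0.90) and to *S1pr2* (r = -0.79).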

How the data were processed

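scRNA-seq (10x 3' v3.1) had been performed on TCRβ+ cells of 1 WT and 1 DKO-severe mouse, with 1 mRNA library and 1 hashtag library for 10000 loaded cells. The authors deposited 1 matrix of raw UMI counts per genotype, which the labels and methods tie to Cell Ranger 7.1.0 and the mm10 genome, with Seurat named for later steps. Whether intronic reads were counted and which filters followed cell calling are not given in the sources used here. The matrices held 7189 WT and 7161 DKO-severe barcodes, with 0 shared.

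Barcodes were retained where the hashtag of their own genotype was the higher, 500 or more genes were detected and at most 10% of UMIs were mitochondrial. As the automatic threshold of Scrublet (scanpy 1.11.5) called 0 doublets, the 6% of barcodes with the highest scores were removed per matrix. This left 6585 WT and 6377 DKO-severe cells. UMIs were summed per gate and genotype and given as CPM with exact Poisson intervals, ratios with exact conditional binomial intervals (scipy 1.17.1) and shares with exact Clopper-Pearson intervals. PCR duplicates were collapsed by UMI, and intervals cover counting error only. No ratio is given where WT had 0 UMIs or both sums were 3 or fewer. Cells were thinned to 3800 UMIs, the 10th percentile, which left out 10.5% of WT and 7.48% of DKO-severe cells. Genes counted as past 2-fold had a mean of 20 or more CPM. With 1 mouse per genotype no test was run.

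The members and lists were chosen with earlier results of these data known. Named genes were the 6 receptors, the list genes past 2-fold or given for their role, and the 3 genes most correlated with each receptor. That correlation was planned over 10 sums and was taken over the 8 T cell sums after the data were seen, since a B cell gate, 1 planned division of the T cell gates and 1 gene each of the naive and B cell marker lists are not reported here. The scripts were tested on simulated counts. Alternatives covered doublet and quality filters, scaling, weighting, gates, thinning and pseudocount, and removal of cells with other-lineage UMIs. Leaving *Ighm* out of that last rule was added after seeing the data, since *Ighm* was detected in 46.0% and 51.8% of Foxp3-negative cells at equal depth. Gates on single transcripts miss cells in which the transcript was not captured.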

Additional observations from a re-analysis of the deposited data

Results flagged for a closer look

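A receptor or pathway gene was singled out where its ratio between genotypes lay in opposite directions in different gates. Both ratios had to be 1.5-fold or more, with counting intervals that excluded 0. Pathway genes were considered only in gates where they had a mean of 20 or more CPM, while the receptors were considered at any level. Under that mean, *P2ry14* (log2 ratio -1.23 without *Pdcd1* and 0.82 in Cd8 cells) also went both ways. So did *Ada* (-1.58 with *Pdcd1* and 0.61 in Cd8 cells). The difference between gates was not tested, since each genotype was 1 mouse. *P2rx7* met this rule, with log2 ratios of 0.65 without *Pdcd1* and 0.97 in Cd8 cells (4.76 and 9.31 CPM, under that mean). Its ratios were -1.27 with *Pdcd1* and -1.63 in Foxp3-positive cells. *Rgs1* was at 1.10 without *Pdcd1* and 1.22 in Cd8 cells and at -0.61 in Foxp3-positive cells. *Entpd1* was at 1.88 without *Pdcd1* and 0.74 with *Pdcd1* and at -0.63 in Foxp3-positive cells. *Art2b* was at 1.06 without *Pdcd1* and 0.98 in Foxp3-positive cells and at -0.63 in Cd8 cells.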

How the results depend on the processing

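No called ratio changed direction. *S1pr1*, *Gpr183* and *P2rx7* kept their sign in each T cell gate under all 12 alternatives, and *Adora2a* with *Pdcd1* under 6. Of the 2-fold differences, *S1pr1* fell short of 2-fold under 3 of 12 in Cd8 cells and 2 in Foxp3-positive cells, *P2rx7* with *Pdcd1* under 1 and *Adora2a* in Foxp3-positive cells under 3. *Adora2a* stayed past 2-fold under 9 of 12 in the undivided Foxp3-negative gate, 8 without *Pdcd1* and 11 in Cd8 cells. *S1pr2* did so under 11 of 12 without *Pdcd1* and only 4 with *Pdcd1*. In Foxp3-positive cells the log2 ratio ran from -1.76 to -0.87 for *S1pr1*, from -1.49 to -0.10 for *Gpr183*, from -2.64 to -1.46 for *P2rx7*, from 0.11 to 1.78 for *S1pr4* and from 0.58 to 2.15 for *Adora2a*. In the Foxp3-negative gate the log2 ratio of *S1pr1* was -1.63 without immunoglobulin, haemoglobin, mitochondrial and ribosomal protein genes in the total, -1.57 centred on the median gene, -1.35 with equal weights per cell, -1.36 on thinned counts, -1.23 without cells holding other-lineage UMIs and -1.31 with *Ighm* left out of that rule. That of *Gpr183* was -2.12, -2.06, -1.87, -1.87 and -1.53 under the first 5 of these and -2.19 with gates of 2 UMIs. *S1pr2* was at 2.62 on thinned counts and 1.03 with a pseudocount of 5 CPM, *S1pr4* at -0.085 without the listed genes in the total and *P2rx7* at 0.59 with *Ighm* left out of the rule. In Cd8 cells, thinned counts gave *S1pr1* -0.94, *S1pr2* 1.26, *S1pr4* 0.34 and *P2rx7* 1.45. Removal of other-lineage cells gave *S1pr2* 1.83, *S1pr4* 0.37, *P2rx7* 1.85 and *Adora2a* 1.44 there. Equal weights gave *S1pr4* 0.33, *Gpr183* -0.29 and *Adora2a* 1.35, and the pseudocount *P2rx7* 0.55 and *Adora2a* 0.74.

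Shares in the Foxp3-negative gate (WT, then DKO-severe) without thinning were 69.0% and 45.5% for *S1pr1*, 1.43% and 8.95% for *S1pr2*, 27.6% and 38.3% for *S1pr4*, 60.4% and 26.4% for *Gpr183*, 9.91% and 18.5% for *P2rx7* and 5.19% and 17.3% for *Adora2a*. Thinned to 4900 UMIs they were 65.8% and 32.9% for *S1pr1*, 24.4% and 27.6% for *S1pr4*, 9.84% and 13.4% for *P2rx7*, 57.6% in WT for *Gpr183* and 10.7% in DKO-severe for *Adora2a*. With 12% of doublet scores removed *Gpr183* was at 54.4% and 15.3%. The cause of these shifts was not tested. The spread between mice is unknown, and the WT gates of 64 and 101 cells held 0 and 5 UMIs of *S1pr2*. A wider B cell gate was not run. No paired analysis was possible because each genotype had 1 mouse and no test was run.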
